A study of Rattus norvegicus with 27 samples.

Results

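The striatal projection neuron and dopamine receptor genes described here are Drd1, Drd2, Drd5, Adora2a, Ppp1r1b, Rgs9, Pde10a, Rarb and Penk. They were chosen by their rat symbols, and each had 1 row in the deposited count table, so they are 9 of its 36865 rows. The RNA came from bilateral medial prefrontal cortex (mPFC), cut out between the forceps minor and the midline, a piece that holds anterior cingulate, prelimbic and infralimbic cortex. The 27 libraries are from 27 adult male Wistar rats killed undisturbed from the home cage, 1 library per rat, after 3 kinds of anxiety test (plus-maze, light-dark box and open field). They form 1 group with no control and no genetic or drug treatment in the labels, and were chosen from a larger number of rats to span the range of anxiety scores, which are not used here. Their labels name learned helplessness as the treatment and add acoustic startle and fear conditioning to the tests, whereas the paper describes the anxiety test battery. The labels also place the tissue in a thinner and more posterior section than the paper does, and name another library kit. The section sets how near the piece lay to the striatum, and which account is right could not be settled from the sources. As a sign of cortex, 9 genes of deep cortical layers were read. All were counted, and they summed to 6897 to 9737 normalized counts per library. These counts show cortex in the piece but not whether it also held striatum.

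Dopamine acts on cortical and striatal neurons through the D1-like receptors, encoded by Drd1 and Drd5, and the D2-like receptors, of which Drd2 is the most widely expressed. In the striatum, projection neurons of the direct pathway carry Drd1, and those of the indirect pathway carry Drd2, the adenosine receptor gene Adora2a and the enkephalin precursor gene Penk. Both kinds share the phosphoprotein Ppp1r1b, which inhibits protein phosphatase 1 after dopamine signaling, the GTPase activator Rgs9, the cyclic nucleotide phosphodiesterase Pde10a and the retinoic acid receptor Rarb. Deep-layer pyramidal cells of the cortex also express Drd1, and some cortical interneurons express Drd2 or Penk. A count in homogenized tissue thus does not name its cell, and fewer cells of a type cannot be told apart from less RNA per cell.

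The RefSeq promoter table of the GRCr8 assembly held 7 entries for 6 of the 9 members, Drd1, Drd2, Drd5, Rgs9, Rarb and Pde10a, the last with 2 start sites. The 250 bases before the start given in that table are printed for Drd1, Rgs9 and Rarb, 3 of the members that were highest in the library that stood apart from the rest, library 51. Capitals mark CpG dinucleotides, the sequence that vertebrate CpG islands are rich in. The Drd1 stretch lies on the plus strand at chr17:10546354-10546603, the Rgs9 stretch on the minus strand at chr10:94770388-94770637, and the Rarb stretch on the plus strand at chr15:11336142-11336391. The Rgs9 stretch adjoins the annotated gene, chr10:94696556-94770387. The Drd1 and Rarb stretches lie inside theirs, chr17:10545488-10550029 and chr15:10837252-11482037, so they precede internal starts and not the first annotated base.
Drd1: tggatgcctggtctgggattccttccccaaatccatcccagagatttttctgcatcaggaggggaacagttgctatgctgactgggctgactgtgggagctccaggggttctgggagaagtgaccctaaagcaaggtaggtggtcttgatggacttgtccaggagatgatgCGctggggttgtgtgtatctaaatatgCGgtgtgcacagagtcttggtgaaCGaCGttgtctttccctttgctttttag
Rgs9: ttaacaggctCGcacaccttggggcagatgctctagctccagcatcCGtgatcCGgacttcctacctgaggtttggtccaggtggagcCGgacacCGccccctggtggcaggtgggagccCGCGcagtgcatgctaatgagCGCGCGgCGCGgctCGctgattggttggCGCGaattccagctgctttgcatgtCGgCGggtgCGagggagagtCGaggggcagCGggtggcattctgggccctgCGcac
Rarb: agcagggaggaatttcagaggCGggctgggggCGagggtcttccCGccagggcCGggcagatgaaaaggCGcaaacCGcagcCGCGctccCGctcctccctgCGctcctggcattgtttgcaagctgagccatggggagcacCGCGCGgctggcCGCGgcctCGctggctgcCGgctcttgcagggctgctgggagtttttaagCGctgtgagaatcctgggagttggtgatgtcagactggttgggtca

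The Drd1 stretch had 4 CpG, near the median of 5 over 33469 promoters. The Rgs9 stretch had 21 and the Rarb stretch 18, more than 84.9% and 79.9% of promoters had. The GC box GGGCGG, read on both strands, occurred 1 time before Rgs9 and was not found in the other 2 windows, and 30.5% of all promoters of this length hold it. GC content was 65.6% for both Rgs9 and Rarb and 51.2% for Drd1, the last equal to the median of all promoters. Nothing in the counts bears on which start is used or which factor acts there.

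The libraries held 4907255 to 12771309 counts. The 16 libraries numbered up to 31 had 4907255 to 8568317, and the 11 numbered from 32 had 9404220 to 12771309. The split follows the number in the label, and its cause is not given. The paper's male Wistar rats came from separate cohorts, and whether these match the sets is not given. Values are printed within both sets where a relation is described. Levels are counts divided by DESeq2 size factors, called normalized counts. They are not corrected for transcript length, so levels of different genes cannot be ranked. A count of 3 is taken as the detection floor, which equals 2.01 to 5.19 normalized counts, and covers counting error only. All 9 members were above it in every library. Some rows of the table are listed at 0 in all 27 libraries, among them Sst and Mef2c, which cortical neurons express, so a row at 0 is not read as absence of the transcript.

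**Figure D1:**
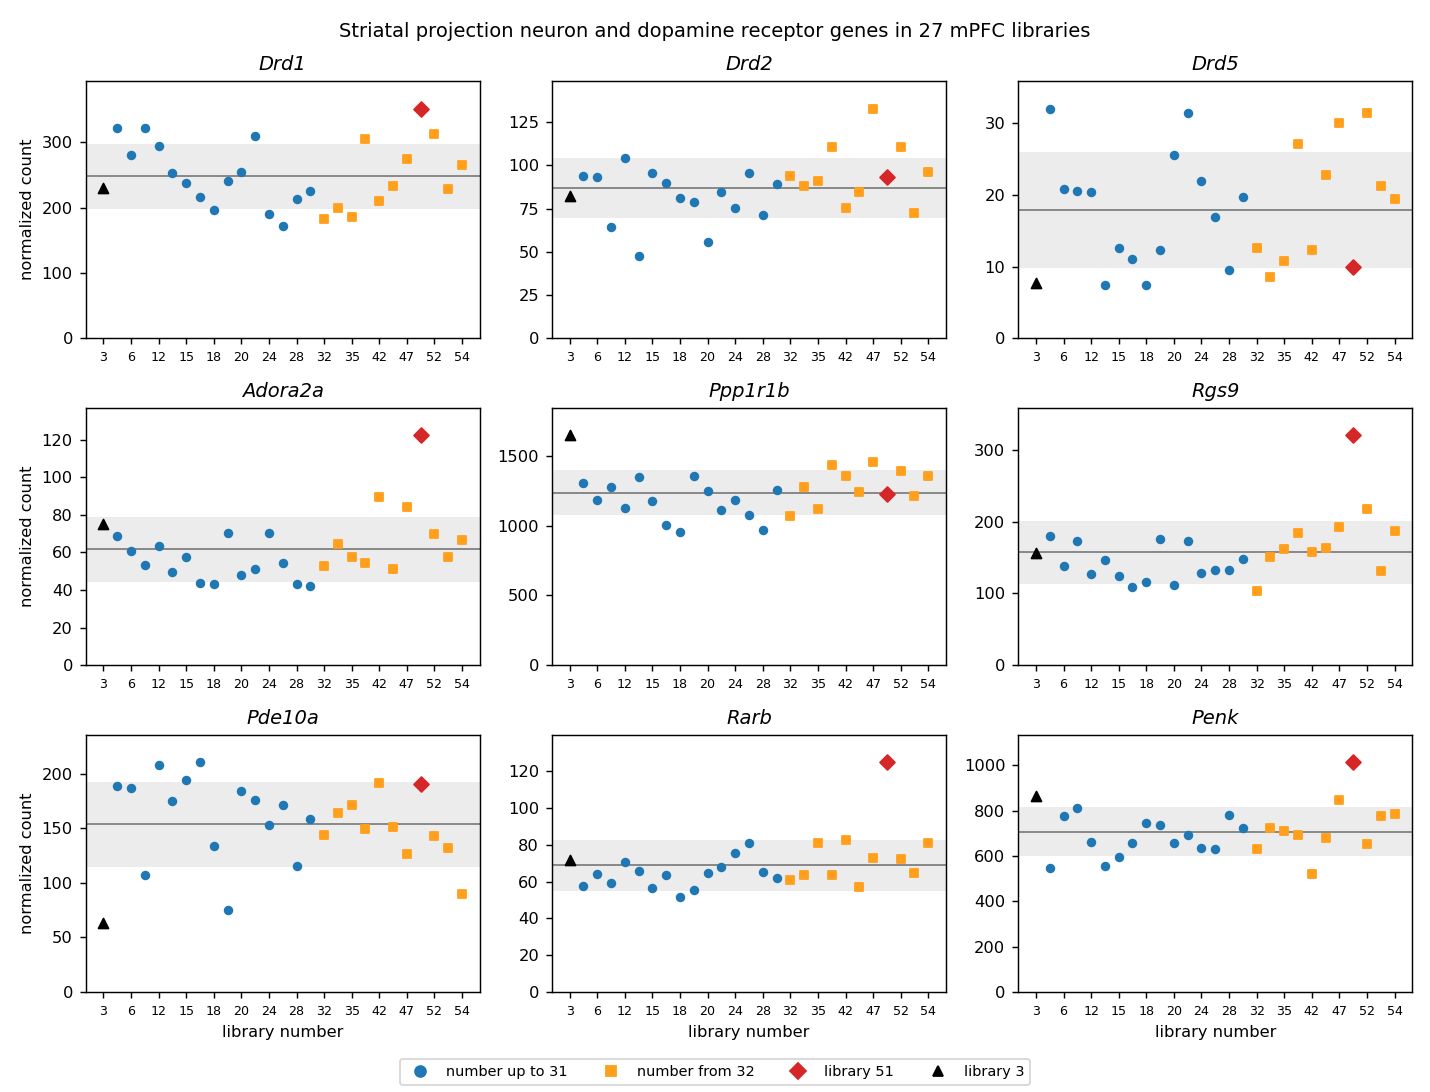
Normalized counts of the 9 members (y axes, starting at 0) in each of 27 libraries (x axes, in order of library number). Grey lines and bands are the mean and ± SD over 27 libraries. Library 51 (red diamond) is the highest for Drd1, Adora2a, Rgs9, Rarb and Penk, and lies near the mean for Drd2 and Ppp1r1b.

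Among the dopamine receptors, Drd1 was measured at 248 ± 49.7 normalized counts (SD, n = 27). Its lowest value was 172 in library 26, its median 237 and its highest 351 in library 51, next to 322 in library 5. The highest was 2.04 times the lowest, and the 2 library sets lay on top of each other, at 247 ± 46.6 (n = 16) and 250 ± 56.3 (n = 11).

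Drd2, the D2 receptor gene, was at 87.1 ± 17.4 (SD, n = 27), with 47.7 in library 13 as the lowest, 89.2 as the median and 133 in library 47 as the highest. Means were 81.5 ± 15.5 in the first set and 95.4 ± 17.3 in the second, with ranges that overlapped, 47.7 to 104 and 72.5 to 133.

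Drd5 was the least counted member, with 5 to 41 reads per library, and did not pass the filter of the fits. It averaged 17.9 ± 8.09 normalized counts (SD, n = 27), from 7.38 in library 18 and 7.42 in library 13 through a median of 19.4 to 32.1 in library 5. Its coefficient of variation of 45.2% was the highest of the 9, and sampling of reads gave 27.6% of its variance.

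Adora2a, whose receptor opposes dopamine D2 signaling in indirect-pathway neurons, was at 61.6 ± 17.2 (SD, n = 27). It ranged from 41.97 in library 31 over a median of 57.6 to 122 in library 51, and the next highest library had 89.3. Library 51 therefore lay well above the 26 others for this gene, which is not so for Drd1.

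Of the genes that act after the receptors, Ppp1r1b varied least, with 1237 ± 159 normalized counts (SD, n = 27) and a coefficient of variation of 12.8%. The lowest library was 18 with 956, the median was 1243 and the highest was library 3 with 1647, followed by library 47 with 1459. Library 51, at 1230, stood 15th from the top.

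Rgs9 was at 157 ± 43.5 (SD, n = 27), with 103 in library 32, a median of 150 and 321 in library 51. The second library, 52, had 219, so that the highest value again stood alone.

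Pde10a was at 154 ± 38.99 (SD, n = 27) and had its outlying values at the low end, with 62.7 in library 3 and 75.0 in library 19 against a median of 159. The highest was 210 in library 17. Library 3 was also the lowest library for 19.9% of the 11730 genes that averaged 10 reads or more, and the highest for 19.8%, so it was extreme for many genes and not for Pde10a in particular.

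The retinoic acid receptor gene Rarb was at 68.7 ± 14.04 (SD, n = 27). The 26 libraries other than 51 were close together, from 51.6 in library 18 to 82.8 in library 42 with a median of 64.6, while library 51 had 125.

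Penk, the enkephalin precursor gene, was at 708 ± 107 (SD, n = 27). The lowest library was 42 with 519, the median was 694, and the highest was library 51 with 1014, followed by library 3 with 867.

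For all 9 members the rats differed beyond the Poisson error of counting (chi-square test of dispersion, Benjamini-Hochberg adjusted over 11730 genes, adjusted p 5.65e-89 for Ppp1r1b to 8.88e-08 for Rarb). This holds for 89.8% of all genes, so the count is that of the background. Without library 51 the number was 8, because Rarb no longer passed (adjusted p = 0.274, against 8.88e-08 with all libraries and 5.06e-08 to 1.46e-07 under the other 3 settings). Rarb thus showed no spread beyond counting among 26 rats that could be detected at this depth. The biological coefficient of variation, edgeR's estimate of the spread without counting noise, was 0.378 for Drd5, and 3.31% of genes had a higher one. For Pde10a it was 0.25, for Rgs9 0.235 and for Adora2a 0.23, with 9.96%, 11.8% and 12.6% of genes above them. The lowest, 0.124 for Ppp1r1b, was close to the median of 0.116 over all genes.

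Library 51 was the highest of 27 for 5 of the 9 members, Drd1, Adora2a, Rgs9, Rarb and Penk. Over the 11730 genes that averaged 10 reads or more, it was the highest for 8.58%. The library was singled out after its values were seen, so its values are given as a description with no test. It held 9978448 counts, within the range of its set. Rgs9 was 2.12 times the mean of the 26 other libraries, Adora2a 2.06 times and Rarb 1.88 times. The exact Poisson intervals of these ratios, from the counting error of library 51 alone, were 1.92 to 2.35, 1.75 to 2.42 and 1.59 to 2.20. In units of the SD over the 26 other libraries, these 3 genes lay 5.79, 5.07 and 6.76 above their means. Penk and Drd1 were raised less, 1.46 times (1.38 to 1.54) and 1.44 times (1.31 to 1.58), or 3.56 and 2.32 SD.

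The other 4 members were not high in library 51. Ppp1r1b was 0.994 times the mean of the others (0.944 to 1.05) and Drd2 was 1.07 times (0.886 to 1.29). Pde10a was at 1.25 times (1.09 to 1.42), with 4 libraries above it. Drd5 was among the lowest with 0.545 times (0.281 to 0.951), from 12 reads. Of the 3 indirect-pathway members, Adora2a and Penk were thus highest in library 51 and Drd2 was not. The ratio of Adora2a to Drd2 was 1.31 in library 51 against a median of 0.635 over all libraries, although library 42 came near it with 1.18. The ratio of Penk to Ppp1r1b was also the highest in library 51, 0.825 against a median of 0.579 and a second value of 0.809.

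**Figure D2:**
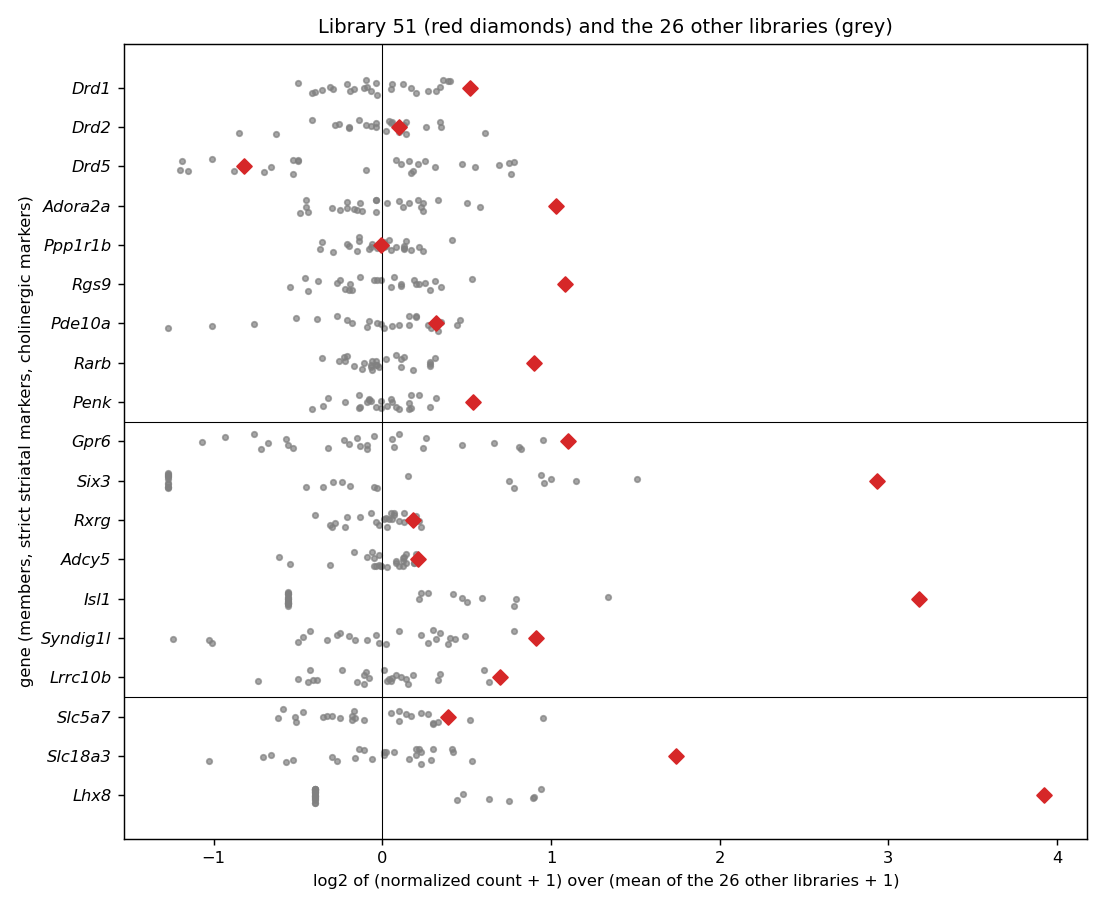
Each row is 1 gene, and each point is 1 library, as the log2 of its normalized count plus 1 over the mean of the 26 other libraries plus 1 (x axis). Members are at the top, 7 of the strict striatal markers in the middle and cholinergic markers at the bottom. Library 51 (red) lies to the right of all grey points for Rgs9, Adora2a, Rarb, Six3, Isl1, Slc18a3 and Lhx8.

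Markers of striatal neurons that are not members were read in the same libraries. Of the strict list of 8, which includes Gpr6, Six3, Rxrg, Adcy5, Isl1, Syndig1l and Lrrc10b, 6 were highest in library 51, and of the 6 with a mean count of at least 10, 4 were. The summed level of the list was 2906 normalized counts there and 1852 to 2850 in the others, so the sum differed little. The abundant genes of the list were present in every library. Rxrg, a retinoid X receptor gene, was at 165 in library 51 within 110 to 171 in the others, and Adcy5, the striatal adenylyl cyclase, at 1430 against 809 to 1420. Some genes of the list were hardly counted in the other libraries. The transcription factor gene Six3 had 21 reads, or 17.4 normalized counts, in library 51, and 0 in 11 of the 26 others, whose highest was 5.87. Isl1, a transcription factor of direct-pathway and cholinergic neurons, had 15 reads, or 12.4, and 0 in 16 of the 26 others, whose highest was 2.74. Reads of Six3 were thus found in 15 of the other libraries, each at 8 reads or fewer. Of a broader list of 15 striatal genes, which holds these 8, 8 were highest in library 51, and its summed level was 8691 there against 5234 to 8048. Among its abundant genes Gnal, a G protein gene, was at 1010 against 437 to 813, and Chrm4, a muscarinic receptor gene, at 715 against 414 to 633.

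Of the 5 cholinergic markers, 3 were highest in library 51. Lhx8, a transcription factor of forebrain cholinergic neurons, had 23 reads against at most 2 in any other library. Slc18a3, the vesicular acetylcholine transporter gene, was at 47.9 normalized counts against 6.15 to 20.2. Slc5a7, the choline transporter gene, was at 64.5 within 31.5 to 95.2, and Chat was listed at 0 in all 27 libraries. The summed level of the list was 170 in library 51 and 45.9 to 111 in the others. By size of the difference to the median of the others, and named after their values were seen, the leading genes with at least 20 reads included Lhx8, Ecel1, Six3, Ripk4, Dnase1, Cartpt and Ngfr. Among them Ecel1 was at 235 against at most 39.6, and Ngfr at 49.6 against at most 16.1. Cartpt was at 222 against at most 209, so another library came near it. Ripk4 and Dnase1 had 23 and 21 reads, at 19 against at most 12.3 and at 17.4 against at most 9.3.

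Markers of other cell types were also read in library 51. The GABA synthesis gene Gad1 and the vesicular GABA transporter gene Slc32a1 were highest there, at 3300 against at most 2990 and at 1280 against at most 971. They belong to a list of 8 interneuron genes whose other members did not do the same. The summed level of that list was 4741 to 5870 in the other libraries and 6179, the highest, in library 51. The parvalbumin gene Pvalb was at its lowest there, 327 against 340 to 720, Vip was 26th from the top at 412, Gad2, Lhx6 and Npy were inside the range of the others, and Sst was listed at 0 throughout. The deep-layer list had its lowest summed level there, 6897 against 6992 to 9737, with Etv1 and Crym at their lowest. The astrocyte list was at 13280 within 13000 to 21890, with Aqp4 and Gja1 at their lowest. The oligodendrocyte list was at 28410, inside 18890 to 66020. The upper-layer list was at 3940, inside 3445 to 5159, with Calb1 at its lowest. The part of these cell types in the members' values was not tested.

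The members were next compared with each other across rats, over 36 pairs. The median Spearman's rho was 0.138, with 28 of 36 above 0 and a range of -0.56 to 0.67. It was 0.085 within the set up to 31, 0.35 within the set from 32 and 0.145 without library 51. Over all pairs of the 11730 genes the median was -0.005. A rho of at least 0.5 before rounding was reached by 4 of the 36 pairs and by 4.53% of all pairs of genes. These correlations are a description over 27 libraries that share depth sets and tissue composition, and they carry no test.

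Rgs9 was in 3 of the 4 strongest pairs. With Ppp1r1b its rho was 0.67 (Pearson's r = 0.53), at 0.63 and 0.55 within the sets up to 31 and from 32, and 0.72 without library 51. With Drd1 it was 0.60 (r = 0.65), at 0.49 and 0.89 within the sets, and 0.55 without library 51. With Adora2a it was 0.52 (r = 0.68), at 0.38 and 0.56 within the sets, and 0.46 without library 51. The other strong pair was Adora2a with Ppp1r1b, at 0.54 (r = 0.53), 0.51 and 0.39 within the sets, and 0.60 without library 51.

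The 2 D1-like receptor genes Drd1 and Drd5 had a rho of 0.50 (r = 0.49), and 0.64 (r = 0.67) once the libraries farthest from the Drd1 median, 26 and 51, were left out. Drd1 and Drd2 were at 0.22 (r = 0.16), with 0.02 within the set up to 31 and 0.49 within the set from 32. The indirect-pathway genes did not form a block, since Drd2 was at 0.31 with Adora2a and -0.04 with Penk, and Adora2a at 0.11 with Penk. Adora2a and Rarb gave 0.48, but 0.27 and 0.86 within the sets, and r was 0.68 with all libraries and 0.37 without libraries 42 and 51. Rgs9 and Rarb had an r of 0.56, and of 0.23 without library 51 alone. Pde10a was at -0.56 with Penk (r = -0.48), the lowest pair, and below 0 within both sets, at -0.61 and -0.29. It was at -0.34 with Ppp1r1b and -0.27 with Rgs9, and between -0.03 and 0.13 with the other 5 members.

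**Figure D3:**
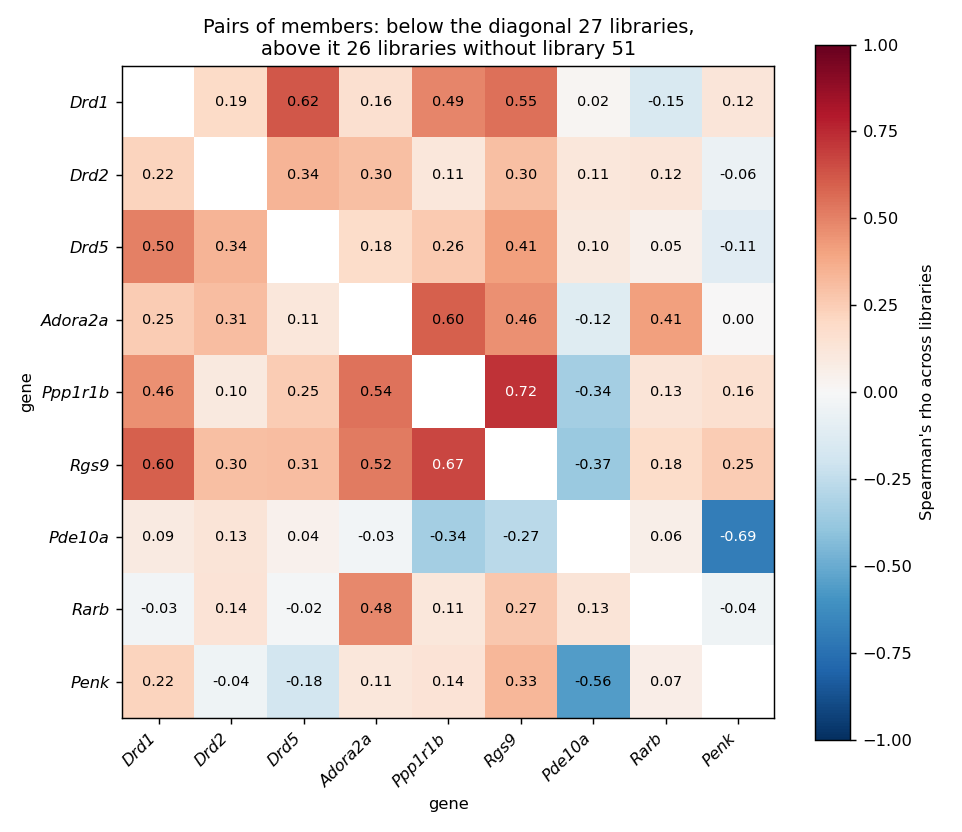
Spearman's rho (colour and number) for the 36 pairs of members, over 27 libraries below the diagonal and over the 26 without library 51 above it. Ppp1r1b with Rgs9 is the highest pair on both sides, at 0.67 and 0.72, and Pde10a with Penk the lowest, at -0.56 and -0.69.

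The genes most like each member were then listed by Spearman's rho over the 27 libraries, among the 9845 or 9846 genes that averaged 50 normalized counts or more. For Drd1 they were Chrna5, Chn2, Dixdc1, Ccp110 and Sstr2, at 0.82 to 0.75. Chrna5 encodes a nicotinic receptor subunit known from neurons of cortical layer 6, and without library 51 its rho with Drd1 was 0.90. Drd5 had Glra2 at 0.76, Nxph3 at 0.74 and Ccn3 at 0.69 on top, followed by Chrna5 and Dixdc1, which were also on the Drd1 list. For Drd2 Zw10 and Lhx6 were among the nearest, both at 0.62. Lhx6 is a transcription factor of cortical interneurons, and its values with Drd2 within the sets were 0.49 and 0.87.

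For Ppp1r1b the 5 nearest genes were Fa2h at 0.85, Klk6 at 0.82, Qdpr at 0.79, Tf at 0.78 and Car2 at 0.78. Fa2h makes hydroxylated fatty acids of myelin, and Tf and Car2, the transferrin and carbonic anhydrase genes, are expressed by oligodendrocytes. Within the sets Fa2h was at 0.86 and 0.80. Rgs9 had Inpp5f at 0.79, Chka at 0.78, Fah at 0.77 and the oligodendrocyte gene Hapln2 at 0.76, and Ppp1r1b came 22nd on its list. For Pde10a the first was the sodium channel gene Scn8a at 0.89, followed by the spectrin gene Sptbn1 at 0.88. Adora2a had Cyp4f4 at 0.76 and Mfsd2a, a lipid transporter gene of brain endothelium, at 0.73. Rarb had Zfhx2 and Wdr4, both at 0.69, and Penk had 6330403K07Rikl at 0.72 and the G protein gene Gnas at 0.70. No member was among the 5 nearest genes of another.

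Whether members followed the amount of a cell type was tested with edgeR's quasi-likelihood fit over all genes, with the library set as a term. Each cell type was summarized by a score, the mean z of its marker genes, and a call is an adjusted p under 0.05. Slopes are log2 changes per SD of the score. Of the members 8 were tested, since Drd5 was filtered. The striatal score, from 13 non-member genes, was followed by 2 of 8 members, Pde10a and Rarb, while 25.6% of all genes tested followed it. The share of members is thus that of the background. Drd1 had a slope of 0.05 ± 0.07 (SE), Drd2 of 0.00 ± 0.07, Adora2a of 0.11 ± 0.08 and Ppp1r1b of -0.10 ± 0.04, none of them called (adjusted p 0.0569 to 0.974). Rgs9 had 0.09 ± 0.07 (adjusted p = 0.409). In the set up to 31 alone, Pde10a was called and Ppp1r1b fell (slope -0.14, adjusted p = 0.0493, with 0.0493 to 0.755 over the settings run). Without the set term, Adora2a (slope 0.16, adjusted p = 0.0348, with 0.0348 to 0.83) and Rgs9 (slope 0.15, adjusted p = 0.0455, with 0.0455 to 0.482) were called as well. With the set term their slopes were 0.11 and 0.09, and with the set term and without library 51 they were -0.04 and -0.10.

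Each of these 2 calls was lost when 1 library was left out. Rarb had a slope of 0.18 ± 0.05 (adjusted p = 0.0146), which became 0.08 without library 51 (adjusted p = 0.338). Its adjusted p ran from 0.00181 to 0.402 over the alternatives. Pde10a had 0.34 ± 0.08 (adjusted p = 0.00232), and without library 3 it had 0.27 (adjusted p = 0.0556, with 8.32e-05 to 0.355 over the alternatives). Without library 51 the called members were Pde10a, at a slope of 0.44, and Penk, which fell (slope -0.13, adjusted p = 0.038, with 0.038 to 0.871 over the settings run), while its slope was 0.04 without library 3 and 0.11 in the set from 32. With the strict list behind the score, no member was called and 2 genes in all were. The striatal score also ran against oligodendrocytes, since 8 of the 9 oligodendrocyte genes fell with it and Mobp was not called. Over all genes tested, 1537 of 11279 fell. Library 3 had the lowest striatal score, -2.61, and the highest oligodendrocyte score, 2.61. The fall of the oligodendrocyte genes was not examined without that library. The genes behind the striatal score were present in all 27 libraries, up to a mean of 1290 normalized counts for Rasd2. The part that cortical neurons have in the score was not tested.

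Drd1 was the member that followed the deep-layer score, built from 9 genes of layer 5 and 6 neurons, and 7.52% of all genes did. Its slope was 0.15 ± 0.05 (adjusted p = 0.0456, with 0.000177 to 0.684 over the alternatives). Without library 51 the slope was 0.24 (adjusted p = 0.000177). In that library Drd1 was at its highest while the score was at -1.67. The 1 library with a lower score, 26 at -2.01, was the lowest for Drd1. The rho of Drd1 with the score was 0.64 over all libraries and 0.82 without library 51, and 0.85 and 0.41 within the sets. Drd5, outside the fit, had a rho of 0.64 with the same score, with 0.49 and 0.82 within the sets, and was called with no filter (slope 0.44, adjusted p = 0.0111) and without library 3 (slope 0.43, adjusted p = 0.00791), with 0.00791 to 0.0921 over the settings that kept it. Ppp1r1b had a slope of 0.09 ± 0.03 on this score (adjusted p = 0.0748), and was called by the DESeq2 Wald test (adjusted p = 0.0397) and by edgeR without library 3 (adjusted p = 0.00835, with 0.00835 to 0.337 over the settings run).

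Ppp1r1b followed the oligodendrocyte score, with a slope of 0.15 ± 0.02 (adjusted p = 3.16e-05, with 7.08e-09 to 0.59 over the alternatives). It was the 1 member of 8 to do so, against 4.11% of all genes. Its rho with the score was 0.73, with 0.78 and 0.57 within the sets, and library 3, the highest for Ppp1r1b, also had the highest score, 2.61. The slope was 0.13 without library 3 (adjusted p = 0.00222) and 0.14 in the 11 libraries from 32 alone (adjusted p = 0.59). Rgs9 had a slope of 0.13 ± 0.06 (adjusted p = 0.238), and without library 51 it was called with a slope of 0.17 (adjusted p = 0.0229, with 0.0229 to 0.97 over the settings run).

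**Figure D4:**
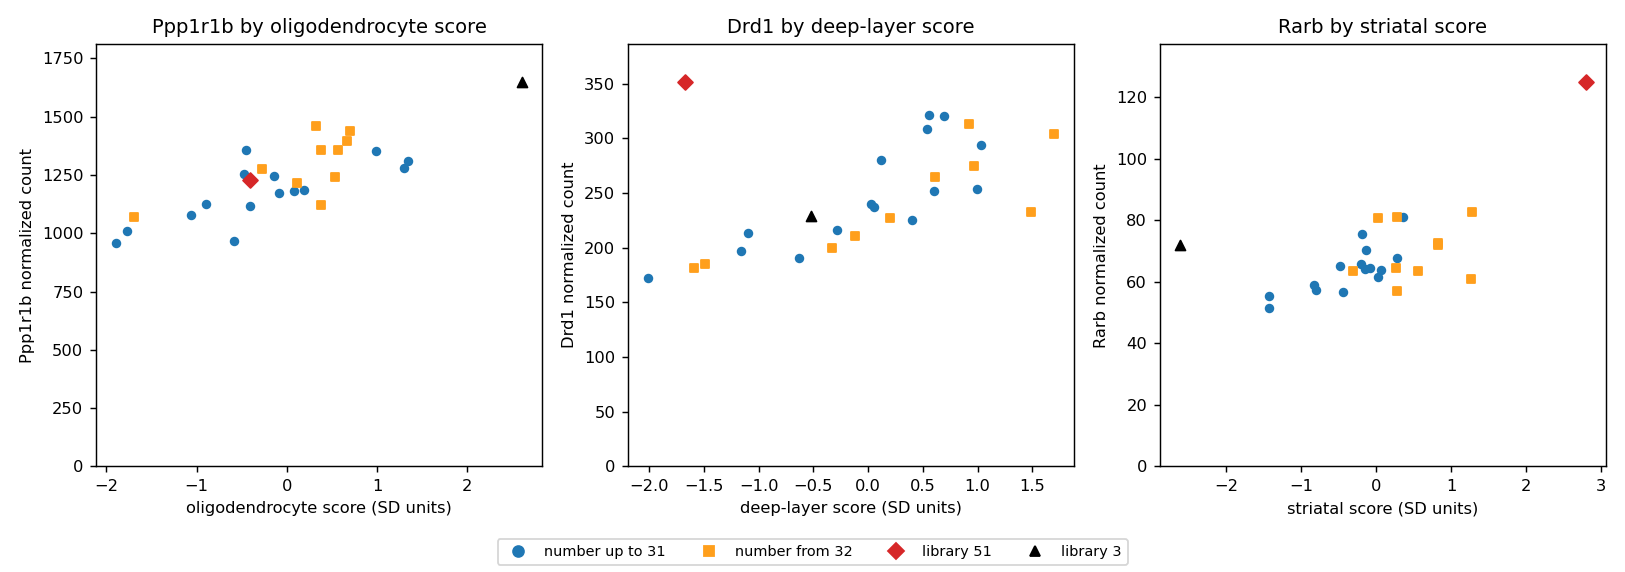
Normalized counts of Ppp1r1b, Drd1 and Rarb (y axes, from 0) by the oligodendrocyte, deep-layer and striatal scores (x axes, in SD), 1 point per library. Library 51 (red) lies above the other libraries for Drd1 and Rarb and among them for Ppp1r1b, and library 3 (black) is at the end of 2 of the scores.

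With the level of a member itself as the covariate, Rgs9 was the 1 of 7 members called for Drd1, at a slope of 0.23 ± 0.04 (adjusted p = 0.0214), against 0.124% of all genes. It was called without library 51 (slope 0.18, adjusted p = 0.0321), and not within either set, where slopes were 0.14 and 0.32 (adjusted p 0.227 and 0.259, with 0.000383 to 0.259 over the alternatives). Of the 9 deep-layer genes 1 followed the Drd1 level, Foxp2. For the Adora2a level 0 of 7 members were called by edgeR or by DESeq2, against 0.0177% of all genes, while 4 had an unadjusted p under 0.05 (Drd1, Ppp1r1b, Rgs9 and Rarb). For the Ppp1r1b level 0 of 7 were called by either tool, against 1.92% of genes, and 3 had an unadjusted p under 0.05 (Drd1, Adora2a and Rgs9). Without library 51 Rgs9 was called there (slope 0.17, adjusted p = 0.0441, with 0.0441 to 0.802 over the settings run). Of the marker lists, 8 of 9 oligodendrocyte genes and 3 of 9 deep-layer genes (Foxp2, Rprm and Tle4) rose with Ppp1r1b, and 0 of 13 striatal neuron genes did.

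Immediate early genes, which neuronal activity induces, gave no called member either (0 of 8 by edgeR and by DESeq2, against 0.0443% of genes). Of the 8, 1 had an unadjusted p under 0.05, which was Rarb (p = 0.00698 in edgeR's fit). Library 51 had a score of 1.52, below 2 other libraries, and 2 of the 10 genes, Fosb and Nr4a1, were highest there. The score of meningeal genes, such as collagens, gave 0 of 8 by both tools and 0 at an unadjusted p under 0.05, against 1.99% of genes. Between the library sets 0 of 8 members differed by edgeR, against 18.5% of genes, and 1 by DESeq2 (Rgs9). An unadjusted p under 0.05 was reached by 4 (Drd2, Adora2a, Rgs9 and Rarb), each with a higher mean in the set from 32, to which library 51 belongs. Without library 3 edgeR called Adora2a (log2 difference 0.36, adjusted p = 0.0477, with 0.0477 to 0.174 over the settings run) and Rgs9 (log2 difference 0.35, adjusted p = 0.0498, with 0.0387 to 0.13).

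The other genes of dopamine transmission were read beside the members. Drd3 and Drd4, the remaining D2-like receptors, had at most 3 and 5 reads in any library, at or near the detection floor, and Drd3 was at 0 in 21 libraries. The dopamine transporter gene Slc6a3, made in midbrain cell bodies, was at 0 in 20 libraries and had at most 5 reads. Tyrosine hydroxylase, Th, was at 24.3 normalized counts (12.6 to 35.6), the decarboxylase gene Ddc at 100 (63.0 to 164) and the vesicular transporter gene Slc18a2 at 95.2 (74.8 to 118). Library 51 was inside these ranges for the 3, at 22.3, 104 and 84.3, and none of the 3 followed the striatal, deep-layer, oligodendrocyte, immediate early gene or meninges score or differed between the sets.

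Of 17 genes of dopamine signal transduction 16 were tested. None followed the deep-layer, immediate early gene or meninges score or the Drd1, Adora2a or Ppp1r1b level. On the striatal score, which uses 5 of them, 11 were tested, of which Cdk5r1 and Pde2a rose and Gnas and Ppp1ca fell. These 4 of 11 stand beside the 25.6% of all genes called on this score, a count of 2890 that was 529 without library 3 and 2 with the strict list. Pde1b, a calmodulin-dependent phosphodiesterase gene, fell with the oligodendrocyte score, and Gnal, the striatal and olfactory G protein gene, was higher in the set from 32. Of the 12 retinoid genes 9 were tested. Aldh1a1 and Aldh1a2, which make retinoic acid and are known from the meninges, rose with the meninges score, whereas Rarb had a slope of 0.01 ± 0.05 there. On the deep-layer score the retinoid-degrading Cyp26b1 rose and the receptor genes Rarg and Rxrb fell, and Rarb had -0.11 ± 0.04 (adjusted p = 0.104). In library 51 Rarg was at its highest, 216 against 105 to 176, and Cyp26b1 at its lowest, 185 against 195 to 533. Of 5 genes that process or bind enkephalin 4 were tested. The protease gene Pcsk1 rose with the deep-layer score, on which Penk had a slope of -0.04 ± 0.04 (adjusted p = 0.54). On the striatal score, which 25.6% of all genes followed, Pcsk2 rose and Cpe fell, while Penk had -0.02 ± 0.05 (adjusted p = 0.837). Cpe rose with the oligodendrocyte score.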

How the data were processed

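Homogenized mPFC of 27 rats gave polyA RNA, which was read from 1 end on an Illumina sequencer. The authors deposited raw counts, the reads counted per gene and library, without normalization. The labels list Trimmomatic, STAR and HTSeq among the processing tools, without versions. The genome build, annotation and strandedness are not given in the sources used here, so counts of overlapping genes are uncertain. All 27 columns were used, each matched to a sample by the number in its title. A score is the mean z of a list's log values over genes averaging 10 counts or more, scaled to an SD of 1. P-values measure the spread between these libraries of 1 rat each.

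Gene IDs were named from the RefSeq list of GRCr8, which matched 28157 of 36865 rows, and 436 rows split a gene over several loci. The 9 members and all gene lists were chosen with earlier results of these data known. Counts were normalized by DESeq2 size factors (version 1.42.0), and log values are log2(normalized count + 1). Fits used edgeR (version 4.0.16) with filterByExpr (11292 genes kept), TMM and quasi-likelihood tests, adjusted by Benjamini-Hochberg over all genes tested. The genes behind a score were left out of its own fit. The fits were tested on simulated counts. Alternatives were DESeq2 size factors, no filter, the DESeq2 Wald test, no term for the library set, each set alone, and leaving out libraries. Leaving out library 51 or library 3 was chosen after seeing the data. Genes named outside the members follow fixed lists, or are the 5 nearest by Spearman's rho, unless stated. Scripts ran in R 4.3.3 and in Python 3.11.15 with pandas 2.3.3, scipy 1.17.1, matplotlib 3.10.9 and numpy 2.4.6. Reads without molecular identifiers are not independent molecules, so intervals and floors cover counting error only. A few genes of the lists are not reported here.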

Additional observations from a re-analysis of the deposited data

How the results depend on the processing

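The number of members called moved by 1 or 2 under some settings. For the striatal score 2 members were called, 4 without the term for the library set, 0 without the 2 farthest libraries, 0 in the set from 32 alone, 0 with the strict list and 1 without library 3. For the deep-layer score 1 was called, 2 with no filter, 2 by the DESeq2 Wald test, 0 without the set term, 0 in the set from 32 and 3 without library 3. For the oligodendrocyte score 1 was called, 0 in the set from 32 and 2 without library 51. For the Drd1 level 1 was called, and 0 without the 2 farthest libraries or within either set. For the Adora2a level 0 were called, and 1 without the set term. For the Ppp1r1b level 0 were called, and 1 without library 51. Between the library sets 0 were called, 1 by DESeq2 and 2 without library 3. For the immediate early gene and meninges scores 0 were called in all settings run. Slopes of the members called in the fits as reported kept their sign in all settings run. Among members called in an alternative alone, Adora2a, Rgs9 and Penk changed sign on the striatal score, with slopes from -0.16 to 0.38, -0.14 to 0.25 and -0.13 to 0.11. The count of 2 on that score in the set up to 31 was Pde10a and Ppp1r1b, and without library 51 it was Pde10a and Penk. The cause was not tested, and the sets alone hold fewer libraries. Genes called over the whole table moved more than 1.5 times in places. For the striatal score 2890 became 490 without the 2 farthest libraries, 529 without library 3, 4 in the set from 32 and 2 with the strict list. For the deep-layer score 848 became 409 without the set term, 49 without the 2 farthest libraries and 14 in the set from 32. For the oligodendrocyte score 464 became 210 without the set term, 181 without the 2 farthest libraries, 197 without library 3, and 192 and 19 in the sets up to 31 and from 32. For the Drd1 level 14 became 77 by DESeq2, 97 without library 51, 25 without library 3, and 1 and 0 in the sets. For the Ppp1r1b level 217 became 453 by DESeq2, 95 without the set term, 52 without the 2 farthest libraries, 59 without library 3, and 101 and 0 in the sets. For the Adora2a level 2 became 10 with no filter, 6 by DESeq2, 4 without the set term and 0 without library 51. For the meninges score 225 became 393 with no filter, and 118 and 127 in the sets, and for the immediate early gene score 5 became 10 by DESeq2, and 3 and 0 in the sets. The median rho of the 36 pairs was 0.138, 0.219 with total counts, and 0.131 to 0.211 with each library left out in turn. The median r was 0.203, 0.202 with a pseudocount of 0.1, and 0.162 to 0.223 with each library left out. The median SD of log2 values was 0.30, with 0.279 to 0.306. No paired analysis was possible because the libraries form 1 group. Depth limits Drd5, Six3, Isl1 and Lhx8, whose reads are few.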
